A study of Drosophila melanogaster with 9 samples.

Results

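The RNAs described here are small nucleolar RNAs (snoRNAs) whose gene names do not state a modified rRNA position, and small Cajal body RNAs (scaRNAs). Their cDNAs were recovered by crosslinking and immunoprecipitation from cultured Drosophila cells with Mei-P26 constructs and from control cells. They were chosen by name: every gene whose name in the deposited tables starts with snoRNA: but not with snoRNA:Psi or snoRNA:Me, and every gene whose name starts with scaRNA:. This gave 65 of the 6780 genes with at least 1 crosslinked cDNA, namely 53 snoRNAs and 12 scaRNAs. Of the 90 RefSeq symbols that fit the same rule, 64 had a cDNA and 26 had none, among them snoRNA:U3:54Aa and snoRNA:U3:54Ab. The word orphan does not suit all of them. U3 and U14 have known roles in rRNA processing, and snoRNA:Or-CD1 carries the current symbol snoRNA:Me18S-C1968, a name for a methylation guide of the small ribosomal subunit. It was kept because the tables name it Or-CD1, and shares without it are given as well.

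Mei-P26 is a TRIM-NHL protein that controls differentiation in the Drosophila germ line, and its NHL domain binds RNA. The experiment was iCLIP2, in which UV light joins proteins to the RNA they touch and each cDNA marks the crosslinked nucleotide. Schneider line 2 (S2, also written SL2) cells, which come from late embryos and resemble hemocytes, were transfected for 48 h with 15 µg of plasmid DNA per dish. The plasmids drove FLAG-tagged full-length Mei-P26 or FLAG-tagged NHL domain (residues 908 to 1206) from the actin 5C promoter, and non-transfected cells of the same line were the control. Each of the 3 groups had 3 replicates, and all 9 libraries came from a FLAG immunoprecipitation after treatment with 10 U RNase I. A treatment text shared by all samples names mutated proteins as the control instead, whereas the titles and the treatment labels say non-transfected.

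Small nucleolar RNAs act as guides within ribonucleoprotein particles. Box C/D RNAs bind fibrillarin, Nop56, Nop58 (nop5 in Drosophila) and the small kink-turn binding protein encoded by hoip, and direct ribose methylation. Box H/ACA RNAs bind the pseudouridine synthase Nop60B with NHP2, Gar1 and Nop10, and direct pseudouridylation. Members of both classes that guide modification of spliceosomal snRNAs gather in Cajal bodies and are called scaRNAs. In Drosophila most of these RNAs are processed from introns of a host gene, so a crosslink on the small RNA also falls within its host.

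The depth was 14685, 1878 and 21831 cDNAs for full-length Mei-P26, 4321, 7947 and 40032 for its NHL domain, and 1252, 1160 and 849 in control libraries. Full-length replicate 2 stood apart. Of its 26 mei-P26 cDNAs, 57.7% lay in the stretch encoding the NHL domain, against 19.0% and 20.3% in the other full-length libraries and 94.8% to 95.6% in the NHL libraries. In the control libraries 3 of 3, 5 of 6 and 10 of 11 mei-P26 cDNAs lay in that stretch (100%, 83.3% and 90.9%), so by this share they resembled the NHL libraries. mei-P26 took 0.24%, 0.52% and 1.30% of all control cDNAs, and control replicate 3 lay within the range of the NHL libraries (1.06% to 1.34%). The source of the control cDNAs was not tested, and it touches every comparison with the control. Shares, counts and calls below are therefore also given without full-length replicate 2 or control replicate 3 where that moves them, in checks partly added after seeing the data. Of 9 hemocyte-like marker genes 6 had cDNAs, led by Col4a1 (164), LanA (152) and vkg (126), whereas Hml, Sr-CI and NimC1 were at 0. The lists for germ line, neurons, muscle and ovarian somatic cells had 2, 10, 1 and 0 cDNAs over all libraries, and vas, osk and bam were at 0.

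The 65 small RNAs together held 2550 cDNAs, and a few of them held most. snoRNA:Or-CD1 alone had 864 cDNAs (33.9%), the top 3 had 57.5% and the top 5 had 68.6%. At the other end 31 RNAs had fewer than 10 cDNAs, 7 of them a single one, and 13 had 10 to 19. The 21 with at least 20 cDNAs are described one by one. Of the 65, by name or RefSeq synonym, 16 were box C/D RNAs (1185 cDNAs) and 8 were box H/ACA RNAs (178). Counted apart were 14 with U numbers or the name snR38 (221), among them the box C/D RNAs U3 and U14. Another 12 were scaRNAs (221), and 15 had no class in name or synonym (745). cDNAs of full-length Mei-P26 were found on 53 of the RNAs, of the NHL domain on 60 and of the control on 28.

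As a share of all cDNAs, these RNAs took 0.97%, 3.35% and 1.01% of the full-length libraries, 5.07%, 4.82% and 3.60% of the NHL libraries and 1.52%, 2.41% and 3.89% of the control libraries. The means were 1.78% ± 1.36 (SD, n = 3), 4.50% ± 0.78 and 2.61% ± 1.20. Every NHL library lay above every full-length library, while control replicate 3 lay above NHL replicate 3. Without replicate 2 the full-length mean was 0.99%, and without control replicate 3 the control mean was 1.97%. No library with the full-length protein other than replicate 2 reached the lowest control library. Without snoRNA:Or-CD1 the means were 1.31%, 2.86% and 1.95%, and without the top 3 they were 1.03%, 1.45% and 1.27%. The baits then overlapped through full-length replicate 2. Without snoRNA:Or-CD1 that library (2.45%) lay above NHL replicate 3 (2.35%), and without the top 3 it (1.76%) lay above every NHL library. The other full-length libraries stayed below every NHL library in both settings. Leaving out full-length replicate 2 as well brought the full-length means to 0.74% and 0.67%. When each crosslinked position was counted once, whatever its cDNAs, the NHL mean was 2.52% and the control mean 2.51%, so the difference between these groups lay in the number of cDNAs per position. That number was 1.19 to 1.61 in the full-length libraries, 1.90 to 2.88 in the NHL libraries and 1.04 to 1.12 in the control libraries. It rose with depth within each group of bait libraries, and the part of depth in the difference from the control was not tested.

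**Figure D1:**
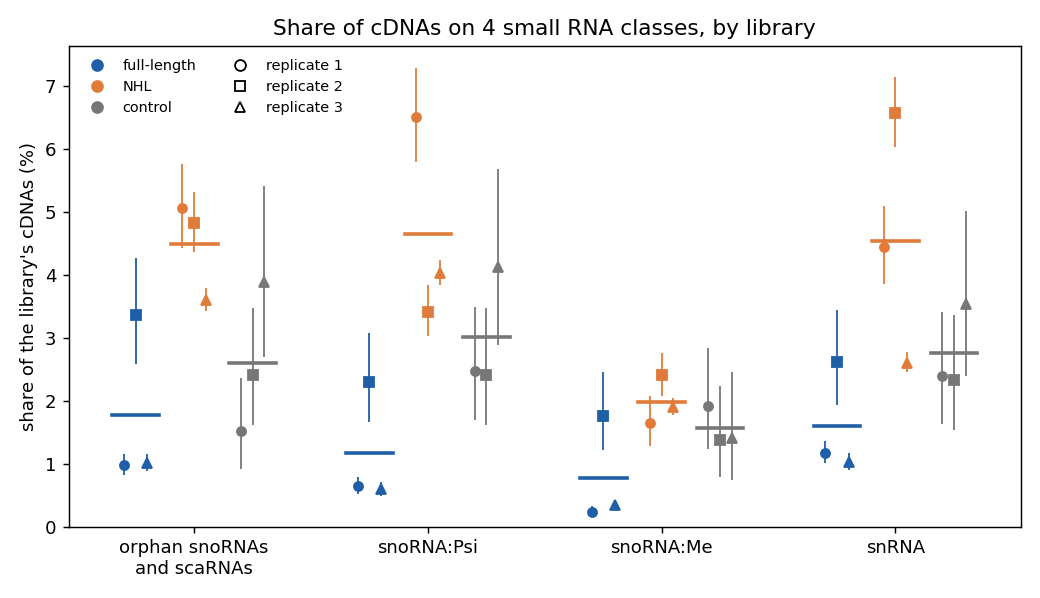
Share of each library's cDNAs (%, y axis) on the orphan snoRNAs and scaRNAs and on 3 other small RNA classes. Points are single libraries with exact 95% binomial intervals, and bars are means of 3. The NHL libraries (3.60% to 5.07%) lie above all full-length libraries (0.97% to 3.35%) for the first class, where the intervals of NHL replicate 3 and full-length replicate 2 overlap. Full-length replicate 2 is the highest full-length library in each class.

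Other small RNA classes had the same order of means. The 91 pseudouridylation guides named snoRNA:Psi took 1.17% ± 0.97, 4.65% ± 1.64 and 3.00% ± 0.97 of the full-length, NHL and control libraries. For the 67 methylation guides named snoRNA:Me the means were 0.78%, 1.98% and 1.57%, and for 19 snRNA genes 1.60%, 4.54% and 2.75%. Without full-length replicate 2 the full-length means were 0.62%, 0.29% and 1.10%, so much of each rested on that library. Without control replicate 3 the control means were 2.44%, 1.65% and 2.36%. Within the 65 RNAs the scaRNAs did not have that order: they took 0.27% ± 0.14 for full-length Mei-P26, 0.24% ± 0.08 for its NHL domain and 0.41% ± 0.37 for the control, and the 3 groups overlapped. Control replicate 3 had none of them, and without it the control mean was 0.62%. Without full-length replicate 2 the full-length mean was 0.19%.

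**Figure D2:**
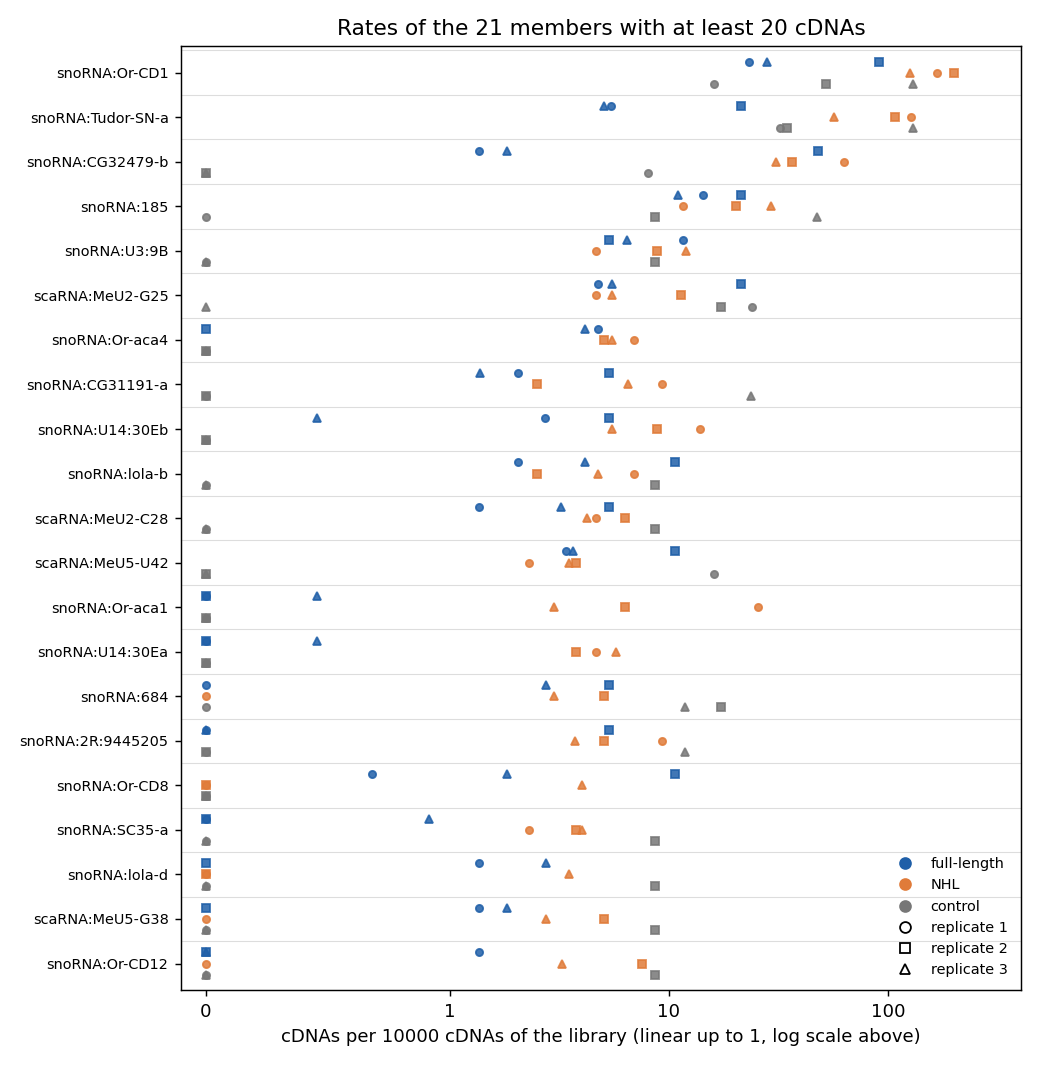
Rates of the 21 small RNAs with at least 20 cDNAs, as cDNAs per 10000 cDNAs of the library (x axis, linear up to 1 and logarithmic above). Each row shows 9 libraries, with colour for the group and symbol for the replicate. For snoRNA:Or-CD1 and snoRNA:Tudor-SN-a each full-length library lies below each NHL library, control replicate 3 lies among or above the NHL libraries, and for many of the other RNAs control libraries are at 0.

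Rates below are cDNAs per 10000 cDNAs of the library. Of the 21 RNAs with at least 20 cDNAs, 6 had a higher mean rate with the full-length protein than with the NHL domain (28.6%), against 55.1% of the 864 genes of that depth. In the other small RNA classes the share was lower still: 2 of 25 snoRNA:Psi genes (8%), 2 of 19 snoRNA:Me genes (10.5%) and 1 of 10 snRNA genes (10%). Without full-length replicate 2 the number among these RNAs was 3 of 21 (14.3%, against 58.8% of all genes). The rates of the 2 groups did not overlap for 7 of the 21 (33.3%), and each of these 7 was lower with the full-length protein. For snoRNA:Or-aca1, snoRNA:Or-aca4, snoRNA:SC35-a and snoRNA:U14:30Ea full-length replicate 2 had 0 cDNAs, which at its depth allow a rate of up to 16.0. Their NHL rates were below that, except snoRNA:Or-aca1 in NHL replicate 1 (25.5), so that library could not separate them. Among the 864 genes, 11.1% were lower without overlap and 9.38% were higher without overlap. Without full-length replicate 2, a check added after seeing the data, 11 of the 21 were lower without overlap (52.4%, against 19.7% of all genes) and 0 were higher (against 23.5%). The 4 added were snoRNA:CG32479-b, snoRNA:CG31191-a, snoRNA:2R:9445205 and scaRNA:MeU2-C28. Against the control, 15 of 21 had a higher mean rate with the NHL domain (all genes 51.3%) and 10 of 21 with the full-length protein (all genes 52.7%). Rates were higher than in every control library for 5 RNAs with the NHL domain (23.8%, against 16.1% of all genes) and for 2 in the full-length libraries (9.52%, against 11.0%). For 4 of these 5 and for both of these 2 the control was at 0, and their pooled rates (5.35 to 6.69 and 1.56 to 1.82) were under the floor of 9.20 that 0 cDNAs over the control libraries allow, so no difference from the control was detectable for them. The fifth was snoRNA:CG32479-b. Below every control library lay 1 RNA in the full-length libraries (4.76%, against 4.05% of all genes) and 0 in the NHL libraries (against 3.24%). Without control replicate 3 the NHL domain was higher for 10 RNAs (47.6%, against 23.0% of all genes), with snoRNA:Or-CD1 and snoRNA:Tudor-SN-a among them, and lower for 1, scaRNA:MeU2-G25 (4.76%, against 10.6%). The full-length protein was then higher for 4 (19.0%, against 15.4%) and lower for 1 (against 10.9%), and without full-length replicate 2 higher for 3 (14.3%, against 26.3%) and lower for 1 (against 6.25%). Of the 10, snoRNA:Or-aca1, snoRNA:Or-aca4, snoRNA:U14:30Ea, snoRNA:U14:30Eb, snoRNA:CG31191-a and snoRNA:2R:9445205 had 0 cDNAs in control replicates 1 and 2. So did snoRNA:Or-CD8, snoRNA:U14:30Eb and snoRNA:CG31191-a of the 4, and all of the 3. Their pooled rates were 4.40 to 6.69 with the NHL domain and 1.56 to 4.17 with the full-length protein. Both ranges lie under the floor of 9.20 over the 3 control libraries, and the floor over control replicates 1 and 2 alone is higher still. No difference from the control was thus detectable for these RNAs. In control replicate 3 snoRNA:CG31191-a had 2 cDNAs and snoRNA:2R:9445205 had 1. Comparisons of single rates used a two-sided exact permutation test, which with 3 libraries a group cannot give a p below 0.1.

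snoRNA:Or-CD1 lies in Swim, the gene of a secreted protein that helps the Wingless signal to spread, with crosslinks on chromosome 2R, minus strand, from 22197284 to 22197374. It ranked 8 among all genes by cDNAs. Its rates were 23.2, 90.5 and 27.9 for full-length Mei-P26, 167, 200.1 and 125 for its NHL domain and 16.0, 51.7 and 130 for the control. All NHL libraries were above all full-length libraries, and control replicate 3, with 11 cDNAs, lay above the lowest NHL library. In a fit of all genes with edgeR's quasi-likelihood test and Benjamini-Hochberg adjustment it was lower with the full-length protein than with the NHL domain (log2 fold change -1.26, SE 0.49, adjusted p = 0.0331).

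snoRNA:Tudor-SN-a lies in Tudor-SN, which encodes a protein with nuclease-like domains and a Tudor domain, on chromosome 3L, minus strand, with crosslinks from 259997 to 260280. Its rates were 5.45, 21.3 and 5.04 for full-length Mei-P26, 127, 107 and 56.5 for its NHL domain and 31.9, 34.5 and 130 for the control. All full-length values were below the lowest of the other 6 libraries. The edgeR log2 fold change was -2.82 (SE 0.57, adjusted p = 6.72e-05) against the NHL domain and -2.21 (SE 0.67, adjusted p = 0.0188) against the control.

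snoRNA:CG32479-b lies in Usp10, a ubiquitin-specific protease gene formerly named CG32479, on chromosome 3L, plus strand, with crosslinks from 890271 to 890457. Its rates were 1.36, 47.9 and 1.83 for full-length Mei-P26, 62.5, 36.5 and 30.7 for its NHL domain and 7.99, 0 and 0 for the control. Full-length replicate 2 lay within the range of the NHL libraries and the other full-length libraries were far below it. By edgeR it was lower with the full-length protein than with the NHL domain (log2 fold change -1.90, SE 0.68, adjusted p = 0.0203), and without full-length replicate 2 the value was -4.04 (adjusted p = 1.52e-05). It was -0.84 without full-length replicate 1 (adjusted p = 0.492) and -0.68 without full-length replicate 3 (adjusted p = 0.582). Over all alternatives its adjusted p by edgeR or DESeq2 ran from 1.52e-05 to 0.582.

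These 3 RNAs were the only ones of the 65 that passed the filter on low counts, which left 73 genes with at least 91 cDNAs each. Between the baits, 38.4% of the tested genes were called, 23.3% as lower in the full-length libraries, and the latter held these 3. snoRNA:CG32479-b passed the filter through the NHL libraries, where it was high, and full-length replicate 2. snoRNA:Tudor-SN-a passed it through the NHL and control libraries, where it was high as well. The calls of both RNAs and the count of 3 are therefore a description. Among the other small RNA classes, 4 of 4 tested snoRNA:Psi genes, 1 of 1 snoRNA:Me gene and 3 of 4 snRNA genes were called lower as well. In the full-length libraries 1 of the 3 was called against the control, as lower, where 6.85% of the tested genes were called and 2.74% were lower. The NHL domain gave none in a comparison in which 0% of the tested genes were called by edgeR or by DESeq2. At an unadjusted p below 0.05 that comparison held 12 genes by edgeR, 2 of them snoRNA:Or-CD1 (log2 fold change 1.39, SE 0.56, adjusted p = 0.135) and snoRNA:CG32479-b (3.64, SE 1.20, adjusted p = 0.0564), and snoRNA:Tudor-SN-a was at 0.61 (SE 0.56, adjusted p = 0.614).

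The calls of snoRNA:Or-CD1 and snoRNA:CG32479-b between the baits did not hold without each library. Both were lost without full-length replicate 1, full-length replicate 3, NHL replicate 2 or NHL replicate 3, and that of snoRNA:Or-CD1 also without NHL replicate 1. Such a fit had 2 libraries in 1 group and could be adjusted over more genes (178 without full-length replicate 2, against 73). A lost call thus does not by itself show a smaller difference. Without full-length replicate 1 or 3 the log2 fold change of snoRNA:Or-CD1 was -0.80 and -0.77, and without NHL replicates 1, 2 and 3 in turn it was -1.42, -0.82 and -1.14. That of snoRNA:CG32479-b, given above for the full-length libraries, was -1.69 without NHL replicate 2 and -1.71 without NHL replicate 3, close to its value in all libraries. The call of snoRNA:Tudor-SN-a between the baits was kept without each library (log2 fold change -3.61 to -2.13) and under every other alternative run, with an adjusted p by edgeR or DESeq2 of at most 0.0107. That too is a description, since this RNA passed the filter through libraries where it was high. For snoRNA:Or-CD1 the adjusted p over the alternatives ran from 0.0014 to 0.415. Against the control the call of snoRNA:Tudor-SN-a was lost when any of full-length replicates 1 and 3 or control replicates 2 and 3 was left out (log2 fold change -2.48 to -1.39 over the libraries left out), and its adjusted p over the alternatives ran from 0.0108 to 0.777. Without full-length replicate 2 the NHL domain gave 2 calls against the control, snoRNA:Or-CD1 (1.93, adjusted p = 0.0109) and snoRNA:CG32479-b (4.15, adjusted p = 0.00924), where 7.30% of 178 tested genes were called, and without control replicate 3 it gave snoRNA:Or-CD1 (2.71, adjusted p = 0.0253), where 4.49% of 178 were called. Over all alternatives the adjusted p of this comparison ran from 0.0011 to 1.00 for snoRNA:Or-CD1 and from 0.0044 to 1.00 for snoRNA:CG32479-b.

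The next RNAs by cDNAs were not tested by edgeR. snoRNA:185 had no host in the tables and 192 cDNAs on chromosome 2R, minus strand. Its rates were 14.3, 21.3 and 11.0 for full-length Mei-P26, 11.6, 20.1 and 29.2 for its NHL domain and 0, 8.62 and 47.1 for the control, so the 3 groups overlapped. snoRNA:U3:9B is a copy of U3, the box C/D RNA needed for the first cleavages of the rRNA precursor, and had no host and 90 cDNAs on chromosome X, plus strand. Its rates were 11.6, 5.32 and 6.41, then 4.63, 8.81 and 12.0, then 0, 8.62 and 0 in the same order of groups, and these overlapped too. Other copies of U3 had no cDNA. The copies of U3, U14, U27, U29, U31, snR38 and the lola group can share sequence, and since cDNAs were those aligned to 1 place, their counts are uncertain.

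U14 is a box C/D RNA with a role in rRNA cleavage, and both of its copies with cDNAs lie in Uhg2, a gene that hosts snoRNAs. snoRNA:U14:30Eb had 4, 1 and 1 cDNAs for full-length Mei-P26, 6, 7 and 22 for its NHL domain and none for the control. For snoRNA:U14:30Ea the counts were 0, 0 and 1, then 2, 3 and 23, and none in the control. Both were below all NHL libraries by rate with the full-length protein (exact permutation p = 0.1 for each, the smallest possible). snoRNA:Or-aca1, a box H/ACA RNA in the ribosomal protein gene RpS16, was alike: 1 cDNA with the full-length protein, in replicate 3, and 11, 5 and 12 with the NHL domain. A count of 0 in the 3 control libraries allows up to 9.20 cDNAs per 10000, whereas the pooled NHL rates of these 3 RNAs were 6.69, 5.35 and 5.35, so a difference from the control was not detectable at this depth. In the full-length libraries the pooled rate of both snoRNA:U14:30Ea and snoRNA:Or-aca1 was 0.26.

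snoRNA:Or-aca4, a box H/ACA RNA with no host, had 7, 0 and 9 cDNAs for full-length Mei-P26, 3, 4 and 22 for its NHL domain and none for the control. snoRNA:SC35-a lies in the gene of the splicing factor SC35 and had 0, 0 and 2, then 1, 3 and 16, then 0, 1 and 0. These complete the 7 RNAs whose rates did not overlap between the baits. By contrast snoRNA:Or-CD8 had 1, 2 and 4 cDNAs with the full-length protein but 0, 0 and 16 with the NHL domain, and snoRNA:lola-d had 2, 0 and 6 against 0, 0 and 14. In both, NHL replicates 1 and 2 had none, and the groups overlapped.

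The other 5 snoRNAs with at least 20 cDNAs overlapped between the baits as well. snoRNA:CG31191-a, a box H/ACA RNA, had 3, 1 and 3 cDNAs, then 4, 2 and 26, then 0, 0 and 2 in the order full-length, NHL, control. snoRNA:2R:9445205, with no host, had 0, 1 and 0, then 4, 4 and 15, then 0, 0 and 1. In both the only full-length library above an NHL library was replicate 2, where a single cDNA stood for a rate of 5.32. snoRNA:lola-b had 14 cDNAs for full-length Mei-P26, 24 for its NHL domain and 1 for the control. The box C/D RNAs snoRNA:684, in CG10576, and snoRNA:Or-CD12, in the ribosomal protein gene RpL28, had 7, 16 and 3 cDNAs and 2, 19 and 1 cDNAs in the same order. Of the 19 cDNAs of snoRNA:Or-CD12 with the NHL domain none was in replicate 1.

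Among scaRNAs, whose names state the modified snRNA, the most crosslinked was scaRNA:MeU2-G25, in mask, which encodes an ankyrin repeat protein. Its cDNAs were 7, 4 and 12 for full-length Mei-P26, 2, 9 and 22 for its NHL domain and 3, 2 and 0 for the control. Its rates were 4.77, 21.3 and 5.50, then 4.63, 11.3 and 5.50, then 24.0, 17.2 and 0, with overlap between all groups. scaRNA:MeU2-C28, in the oligosaccharyltransferase gene Stt3A, had 10 cDNAs for full-length Mei-P26, 24 for its NHL domain and 1 for the control. scaRNA:MeU5-U42, in CG12316, had 15, 18 and 2. scaRNA:MeU5-G38, in the helicase gene pit, had 6, 15 and 1. The rates of these overlapped between the baits as well.

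The remaining 8 scaRNAs had 18 cDNAs or fewer. Those of scaRNA:MeU2-48, in the splicing regulator gene hfp, were 7 with each bait and 4 in the control, and those of scaRNA:MeU2-C41, in lds, were 7 with each bait and 1 in the control. scaRNA:PsiU5-44, in the splicing regulator gene tra2, had 4, 11 and 0. scaRNA:PsiU2-55, in Prp8, had 3, 5 and 0, and the other 4 had between 1 and 4 cDNAs. None of the scaRNAs named for pseudouridylation had a cDNA in the control, where the floor of 9.20 per 10000 was above their rates.

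Crosslinks on the 4 scaRNAs with at least 20 cDNAs lay close together. For each RNA with at least 20 cDNAs, the position with most cDNAs over all libraries was taken, and the share within 5 nt on either side was counted. It was 90.2% (exact 95% interval 79.8 to 96.3) for scaRNA:MeU2-G25, whose top position was 24237225 on chromosome 3R, plus strand, and 88.6%, 88.6% and 90.9% for scaRNA:MeU2-C28, scaRNA:MeU5-U42 and scaRNA:MeU5-G38. In all 4 the top position was the same nucleotide with the full-length protein and with the NHL domain. The 17 snoRNAs were all below these 4 and ranged from 17.4% (snoRNA:lola-d) to 68.6% (snoRNA:Tudor-SN-a), with a median of 46.3%. The 4 scaRNAs had 22 to 61 cDNAs and the 17 snoRNAs 22 to 864. The comparison is a description, because the windows were placed on the highest positions and the lengths of the RNAs were not compared.

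**Figure D3:**
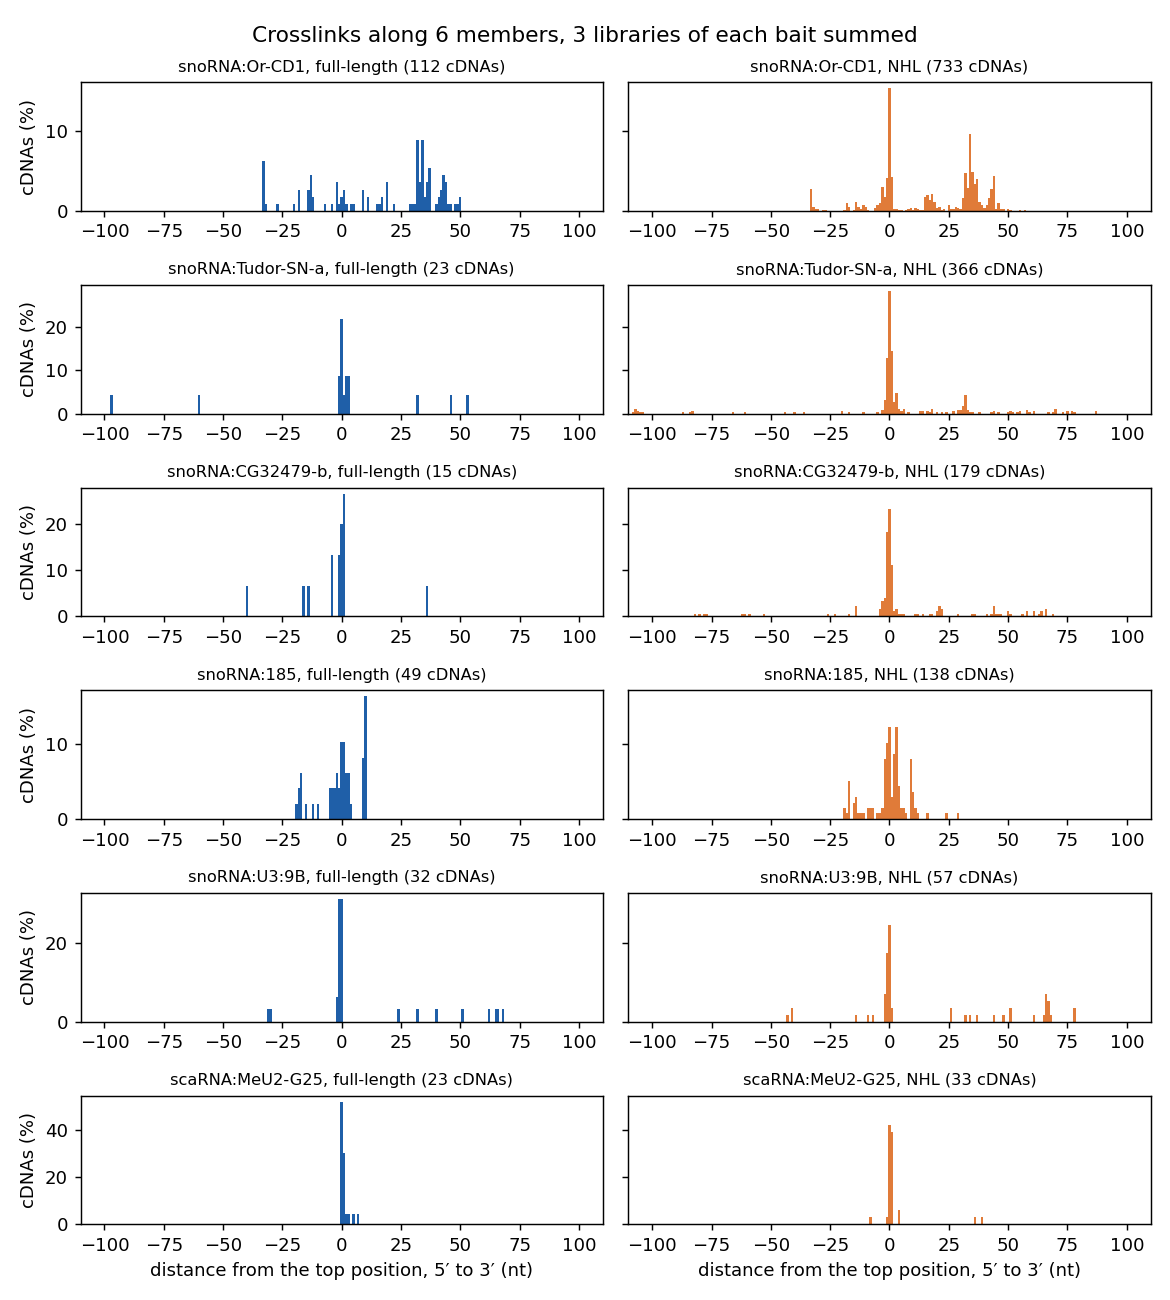
Crosslinks along 6 small RNAs with the full-length protein (left) and the NHL domain (right), 3 libraries summed. The x axis is the distance in nt from the position with most cDNAs over all libraries, read 5′ to 3′, and the y axis the percentage of the cDNAs of that bait on the RNA. scaRNA:MeU2-G25 has nearly all cDNAs at 1 place, and snoRNA:Or-CD1 has 2 places 34 nt apart. Of these the full-length protein shows mainly the one further 3′, and the NHL domain shows both.

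The top positions of the baits lay more than 5 nt apart in 11 of the 17 snoRNAs and in 0 of the 4 scaRNAs, and in most of these snoRNAs the full-length libraries had few cDNAs to place it. On snoRNA:Or-CD1, which had the most, the top position with the NHL domain was 22197341 and that with the full-length protein was 22197307, which lies 34 nt further 3′ on the minus strand. The window of 5 nt on either side of the NHL domain's top position held 14.7%, 17.6% and 9.84% of the cDNAs in the full-length libraries and 27.8%, 39.6% and 28.7% of those of the NHL libraries, without overlap. In the control it held 4 of 19 cDNAs (21.1%, exact 95% interval 6.05 to 45.6). Within 5 nt of the full-length protein's top position lay 34.8% of its cDNAs, 33.7% of those of the NHL domain and 36.8% of the 19 in the control. The window of the NHL domain's own top position held 31.0% of its pooled cDNAs. The NHL domain thus had similar shares at both places. Each window was placed where 1 bait was highest, so these shares are descriptions. Full-length replicate 2, which stood apart elsewhere, had 3 of 17 cDNAs in the first window and 5 of 17 in the second, within the range of the other full-length libraries or near it.

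On snoRNA:Tudor-SN-a the top position was 260084 on chromosome 3L with both baits. The window around it held 68.6% of the NHL domain's cDNAs (70.9%, 68.2% and 68.1% by library), 52.2% of the 23 with the full-length protein and 89.5% of the 19 in the control. The control thus had its few cDNAs at the same place. On snoRNA:CG32479-b the window around 890388 held 65.9% with the NHL domain and 73.3% of the 15 full-length cDNAs, 9 of which came from replicate 2. For snoRNA:U3:9B, with its top position at 10348243 on chromosome X, it held 68.8% with the full-length protein and 52.6% with the NHL domain, with exact 95% intervals that overlapped.

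Significant peaks, which the authors called per library, were listed under the name of one of these RNAs for 26 of the 65 (40.0%), against 19.4% of all 6780 genes. Of all peaks, those on these RNAs made up 1.75%, 5.31% and 1.69% in the full-length libraries, 10.0%, 4.28% and 2.65% in the NHL libraries and 8.77%, 2.38% and 10.0% in the control libraries, so the control, with 42 to 60 peaks a library, spanned nearly the same range as the NHL domain. With the full-length protein 6, 3 and 12 RNAs had a peak, with the NHL domain 8, 6 and 20, and in the control 2, 1 and 1, an order that followed depth within each group except for NHL replicates 1 and 2 and where counts were equal. Over 3 libraries each, 12 RNAs had a peak for full-length Mei-P26 (18.5%, against 11.8% of all genes), 23 for its NHL domain (35.4%, against 11.4%), 2 for the control (3.08%, against 1.17%) and 10 for both baits. In at least 2 libraries of both baits a peak was found on 6: snoRNA:Tudor-SN-a, snoRNA:CG32479-b, snoRNA:Or-CD1, snoRNA:185, scaRNA:MeU2-G25 and scaRNA:MeU5-U42. snoRNA:Tudor-SN-a had a peak in all 3 control libraries, and scaRNA:MeU2-48 in 1. The peak lists give each position under a single name, so a peak shared with a host can stand under the host alone.

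A host was recorded at the same positions for 60 of the 65 RNAs, in 42 genes. Uhg1 held 9 of the RNAs and lola, a transcription factor gene, 4. In some hosts nearly all cDNAs were those of the small RNA. They made up 86.2% of the 1002 cDNAs of Swim, 90.7% of the 450 of Tudor-SN, 79.4% of the 267 of Usp10, 93.2% of the 44 of CG31191 and all 15 of tra2. In ribosomal protein genes they were a small part, such as 11.8% of the 229 of RpL28 and 11.2% of the 258 of RpS16. Over the 33 hosts with at least 20 cDNAs the median was 31.9%, and 11 hosts were above 50%.

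In the 3 hosts with most cDNAs at small RNA positions, the share by library was as follows. In Swim it was 68.0%, 81.0% and 79.2% with the full-length protein and 92.3%, 94.1% and 86.6% with the NHL domain. Tudor-SN gave 50.0%, 80.0% and 55.0% against 96.5%, 97.7% and 92.2%. The full-length libraries were lower without overlap in both genes, and no test was run on these shares. In the control the share was 70.4% of 27 cDNAs in Swim and 19 of 20 cDNAs in Tudor-SN. In Usp10 the baits overlapped, with 12.5%, 90.0% and 35.3% against 100%, 87.9% and 88.7%, and full-length replicate 2 was the library that overlapped. Over all 42 hosts the share was 29.8% for full-length Mei-P26, 45.1% for its NHL domain and 42.9% for the control.

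Positions shared by a small RNA and its host were tested by the authors' caller once for each gene. Of 960 such pairs of a position and a host, counted per library, 224 were below a false discovery rate of 0.05 for both genes, 269 for the host alone, 0 for the small RNA alone and 467 for neither. The threshold was thus passed more often under the host's name than under that of the small RNA, at the same nucleotides and with the same cDNAs.

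The genes of the protein partners had few cDNAs. The box C/D core genes Fib, nop5, Nop56 and hoip had 32 cDNAs for full-length Mei-P26, 43 for its NHL domain and 2 for the control. Of the 21 cDNAs of Fib and the 24 of nop5, 7 and 2 lay at positions of small RNAs within these genes. The box H/ACA core genes Nop60B, NHP2, CG4038 (Gar1) and CG7637 (Nop10) had 36, 55 and 5, led by Nop60B with 51 over all libraries, of which 33 lay at positions of small RNAs within it. For Cajal body and assembly genes, namely coil, Smn, Nopp140, pont, rept and Tgs1, the counts were 16, 17 and 4, with 22 of all on Nopp140 and 1 on coil. None of these genes reached the depth at which edgeR tested a gene, so none was tested.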

How the data were processed

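iCLIP2 libraries of 3 groups with 3 replicates each were analysed. Per the labels and the methods, the authors demultiplexed and trimmed the reads, discarded PCR duplicates and mapped every replicate by itself to the fly genome of Ensembl release 98 (STAR 2.7.3a in the submitters' processing notes, with no assembly name found in the sources), and then ran iCount. The deposited counts are distinct cDNAs per nucleotide, without normalization. The deposited score tables repeat them for each annotated gene with a false discovery rate, a corrected p-value. Coordinates follow these files, counted from 1.

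The members and the gene lists were chosen with earlier results of these data known. A gene's count is the sum of its scores. 6725 of 6780 gene identifiers matched a current symbol. A host is any other gene recorded at a member's positions. RefSeq names (Release 6 plus ISO1 MT) served for symbols only, and no sequence was printed because none was at hand.

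Counts of the genes that passed the default filter on low counts were fitted with edgeR 4.0.16 (R 4.3.3): 9 libraries, 3 groups, quasi-likelihood test, adjusted p of at most 0.05. Library sizes were the sums over these genes, with TMM. DESeq2 1.42.0 was an alternative, as were other scalings, no filter, a replicate term, hosts stripped of member positions, leaving out each library, other denominators and windows, and a false discovery rate of 0.01. The edgeR step was tested on simulated data. Single libraries held 849 to 40032 cDNAs, and intervals are exact (Clopper-Pearson, 95%). They and the floor of 3 counts cover counting error only, and a floor over a group uses its summed cDNAs. Replicates are called biological by the design text, without saying what was independent. Named genes are members with at least 20 cDNAs, every scaRNA with a cDNA, members passing the filter, their hosts and the listed partner genes. Other members were named after their values were seen. Other steps used Python 3.11.15 with SciPy 1.17.1, pandas 2.3.3, NumPy 2.4.6 and, for plots, matplotlib 3.10.9. One host gene is not reported here.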

Additional observations from a re-analysis of the deposited data

Results flagged for a closer look

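The differences of both baits from the control were themselves different, by edgeR's direct comparison of the baits, for snoRNA:Or-CD1 (log2 fold change -1.26), snoRNA:Tudor-SN-a (-2.82) and snoRNA:CG32479-b (-1.90). All 3 were lower with the full-length protein. These comparisons share the bait libraries with those against the control. With single libraries left out, the log2 fold change of snoRNA:Or-CD1 ran from -2.11 to -0.77. That of snoRNA:Tudor-SN-a ran from -3.61 to -2.13 and that of snoRNA:CG32479-b from -4.04 to -0.68. Only the call of snoRNA:Tudor-SN-a was kept without each library. snoRNA:Tudor-SN-a and snoRNA:CG32479-b passed the filter on low counts through libraries where they were high, so their calls are a description.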

How the results depend on the processing

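The number of these RNAs called by edgeR was 1 (full-length against control), 0 (NHL against control) and 3 (full-length against NHL). Without the filter it was 0, 2 and 2 and by DESeq2 0, 0 and 2; with library totals 1, 0 and 2. DESeq2's size factors and hosts stripped of shared positions left 1, 0 and 3. Leaving out single libraries gave 0 to 1, 0 to 2 and 1 to 3. Over all tested genes, 11 were higher and 17 lower between the baits, 1 and 23 with library totals, 0 and 18 without the filter and 18 and 13 by DESeq2. Full-length against control gave 3 and 2, and 0 and 3 with library totals. That scaling moved the median log2 fold change of the tested genes between the baits from -0.14 to -1.02. snoRNA:Or-CD1, at 0.13 between full-length and control and not called, reversed to -0.58 with library totals, to -0.18 without full-length replicate 2 and to -0.30 without control replicate 1, with a range of -0.30 to 0.94 over the libraries left out. Over all genes the calls without the filter were 3 (full-length) and 15 (NHL) against the control, and 0 in each by DESeq2. The RNAs with lower rates in all full-length than in all NHL libraries numbered 7, and 11 without full-length replicate 2, and those with a higher full-length mean 6, and 3 without it, settings added after seeing the data. A replicate block left the calls at 1, 0 and 3. Deviations of libraries with the same number correlated at -0.39 to 0.29, and those with different numbers at -0.34 to 0.39. Whether libraries with the same number were processed together was not tested. The member share of the NHL libraries, 4.50%, moved to 2.52% with each position once and 2.86% without snoRNA:Or-CD1. Shares of host cDNAs ranged over libraries left out from 28.1% to 32.9% (full-length) and 44.7% to 46.9% (NHL). Members with a peak averaged 4.50 to 9.00 and 7.00 to 14.0. At single positions, 6, 3 and 12 RNAs (full-length) and 8, 6 and 20 (NHL) passed a false discovery rate of 0.01, against 7, 3 and 13 and 8, 6 and 21 at 0.05. The share at the top position over the 21 RNAs was 44.3%, 49.1% and 60.9% (full-length, NHL, control) within 5 nt, 18.5%, 21.9% and 14.1% at the position alone and 52.9%, 53.1% and 62.5% within 10 nt; without single libraries the NHL share was 48.5% to 52.2%. The cause of these changes was not tested. The control libraries, at 849 to 1252 cDNAs, limit every comparison with the control.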
